A study of Mus musculus with 12 samples.

Results

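The 2 single agents were compared directly in 6 of the 12 tumors of the series: 3 tumors labelled ADUS100 (numbers 1506, 1512 and 1513) and 3 labelled olaparib without ADUS100 (numbers 1510, 1517 and 1521). Tumors were assigned to the groups by these labels alone. All came from the K14-Cre;Brcaf/fTrp53f/f model (spelled as in the labels) of triple-negative breast cancer, in which Cre recombinase under the keratin 14 promoter deletes Brca1 and Trp53 in epithelium, and had been grown as transplants in the mammary fat pads of female FVB/129P2 mice, a syngeneic host whose age the labels do not give. Mice of the ADU-S100 group received 50 μg of the drug in a single 40 μl injection into the tumor on the first day, with DMSO given intraperitoneally. Mice of the olaparib group received 50 mg/kg intraperitoneally each day, with a saline injection of the same volume into the tumor. The 3 vehicle tumors, which received DMSO and saline, serve below as a common reference, and 3 tumors of the combination enter the filter on low values, the correlations between tumors and the estimate of the spread, but no comparison. All tumors were harvested at day 3, and RNA of a tumor chunk was measured with the nanoString nCounter system, in which color-coded probes bind to RNA molecules and are counted without amplification. The labels do not say whether the transplanted chunks came from 1 donor tumor. Where they did, the p-values below measure only the spread between transplants.

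The 2 drugs are thought to reach innate immune signaling by different routes. ADU-S100 is a cyclic dinucleotide that binds STING directly, and STING then recruits the kinase TBK1, which activates IRF3 for the interferon genes, while NF-κB drives inflammatory cytokines. Olaparib blocks PARP, and DNA damage that accumulates in Brca1-deficient cells can release DNA into the cytosol, where the sensor cGAS makes the natural STING ligand. Interferon then acts through its receptor and the STAT factors on interferon-stimulated genes, which encode antiviral effectors, chemokines and antigen presentation proteins.

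The promoters of 3 interferon-stimulated genes and of the NF-κB inhibitor Nfkbia are shown as examples of 2 gene lists, described further on, in which most genes were on average higher with olaparib. The sequences are from RefSeq (mouse build GRCm38.p6), start at most 186 bases before the gene start and end 81, 83, 27 and 1 bases before it, and are given 5′ to 3′ on the strand of the gene, with the matches in capitals. Capitals mark GAAANNGAAA or its reverse complement (the core of the interferon-stimulated response element, to which the STAT and IRF factors bind) in Rsad2, Ifit3 and Isg15, and GGGNNTTTCC or its reverse complement (a form of the κB site) in Nfkbia. The windows are chr12:26456533-26456602 (minus strand), chr19:34583343-34583446 (plus strand, 2 matches), chr4:156200845-156200926 (minus strand, 3 matches that overlap) and chr12:55492648-55492706 (minus strand).
Rsad2: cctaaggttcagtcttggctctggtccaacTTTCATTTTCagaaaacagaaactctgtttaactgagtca
Ifit3: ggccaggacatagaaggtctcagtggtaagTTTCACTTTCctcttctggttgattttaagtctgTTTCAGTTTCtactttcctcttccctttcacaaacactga
Isg15: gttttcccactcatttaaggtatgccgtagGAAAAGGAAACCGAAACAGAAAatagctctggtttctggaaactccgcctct
Nfkbia: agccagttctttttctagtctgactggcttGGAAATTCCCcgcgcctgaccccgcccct

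In the 250 bases before the gene start, on both strands, the response element core was found in 14 of the 26 interferon-stimulated genes with a RefSeq promoter (53.85%). It was found in 3.463% of all 27025 genes with a RefSeq promoter and in 8.789% of the 512 tested genes with one. A gene with several promoters was counted when any of them matched. The κB form was found in 6 of 18 genes of the NF-κB pathway (33.33%), against 1.654% of all genes with a promoter and 6.055% of the tested ones. It was also found in 5 of 24 chemokine ligand genes (20.83%), from a list in which most genes were on average higher with ADU-S100 with all tumors. A match of letters is a description of the promoter and says nothing of binding in these tumors.

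Of 750 genes in the table, 689 had a normalized count of at least 20 in at least 3 of the 12 tumors and were tested. The counts behind the normalized values summed to between 372390 and 683982 per ADU-S100 tumor, and to 480055, 106206 and 1392128 in olaparib tumors 1510, 1517 and 1521. In tumor 1517 one count is therefore worth 10.5 normalized counts, against 0.589 in tumor 1521. Its log2 values correlated with those of the other 11 tumors at a median r of 0.787 across genes, against medians of 0.904 to 0.949 for the other tumors. Tumor 1517 was the highest olaparib tumor for 65.0% of the genes and tumor 1521 the lowest for 66.5%, and tumor 1506 was the highest ADU-S100 tumor for 70.3%. The median SD between tumors was 0.64 on the log2 scale with ADU-S100 and 1.08 with olaparib. List medians and the differences of the main genes are therefore given also without some of the single tumors that moved them.

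No gene passed the adjusted threshold of 0.05 in the direct comparison (limma, smallest Benjamini-Hochberg adjusted p = 0.998, 0% of the genes tested). At an unadjusted p under 0.05 there were 13 genes higher with ADU-S100 (1.89%) and 1 higher with olaparib (0.145%), fewer in all than the 34.45 that this threshold alone gives over 689 genes. Values of all 3 tumors of a group lay beyond those of the other for 18 genes higher with ADU-S100 (2.61%) and 5 higher with olaparib (0.726%). With 3 tumors against 3, a two-sided exact permutation test cannot go below 0.1. Of the 689 genes, 355 were on average higher with ADU-S100 (51.5%) and 334 with olaparib, and the median difference was 0.01 on the log2 scale. The median half-width of the 95% confidence interval of a gene's difference was 1.35 on the log2 scale, and for 54 genes the interval lay within a difference of 1 in either direction. For the other genes a difference of 1 on the log2 scale is within the interval in at least one direction, so that the absence of calls does not show that the agents acted alike. The split of the 2 directions depended on scaling: with each tumor scaled to the same median the genes at an unadjusted p under 0.05 were 16 and 14, and the genes without overlap 19 and 28, and with quantile normalization they were 23 and 23, and 22 and 19. Leaving out single tumors moved the split further. At the unadjusted threshold the genes were 6 and 23 without tumor 1506, 61 and 2 without tumor 1517, and 21 and 59 without tumor 1521, and the genes without overlap were 28 and 58, 133 and 13, and 44 and 88. Of the 99 genes chosen by the naming rule, 81 moved by over 1.5 times, in log2 difference, with some single tumor left out, and 25 turned direction.

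**Figure D1:**
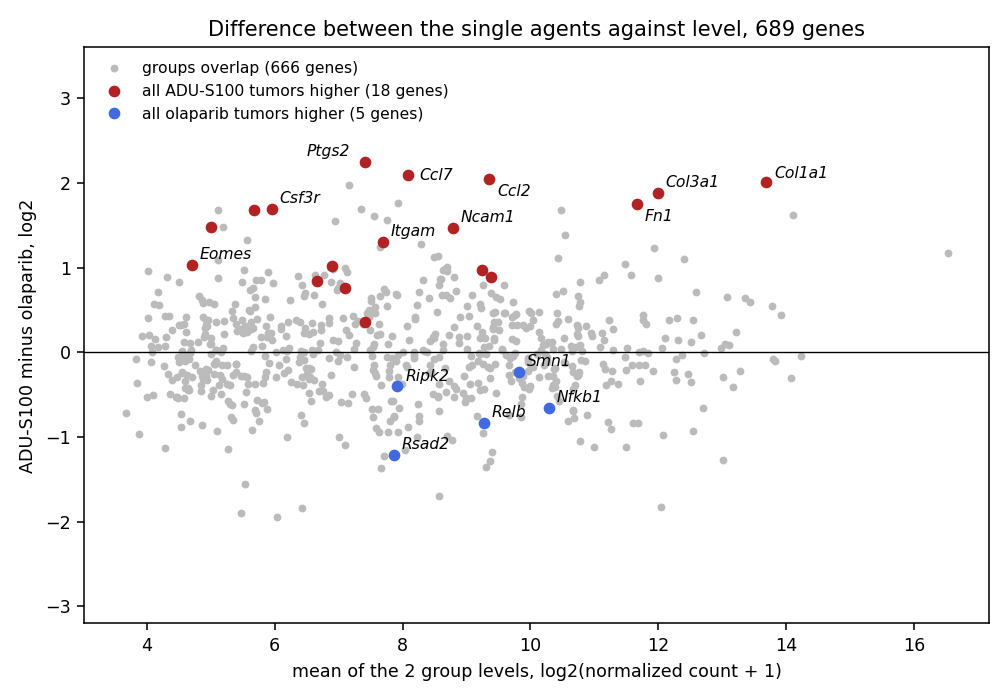
Each point is 1 of 689 genes, with the mean of the 2 group levels on the x axis (log2 of normalized count + 1) and the ADU-S100 minus olaparib difference on the y axis (log2). The 18 genes with all 3 ADU-S100 tumors above the olaparib tumors (red) include Ccl2, Ccl7, Csf3r and the matrix genes Col1a1, Col3a1 and Fn1, and the 5 with all olaparib tumors above (blue) include Relb, Nfkb1 and Rsad2. No gene passed the adjusted threshold.

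Measured against the common vehicle tumors, both agents lay mostly above them. With ADU-S100 539 genes were above vehicle on average (78.2%), with a median of 0.44 on the log2 scale, and 32 were above at an unadjusted p under 0.05 (4.64%) and 1 below (0.145%). With olaparib 514 genes were above vehicle (74.6%), with a median of 0.45, and 40 were above at an unadjusted p under 0.05 (5.81%) and 10 below (1.45%). Neither comparison had a gene past the adjusted threshold in limma (smallest adjusted p = 0.809 and 0.577), but without tumor 1521, the low olaparib tumor, 55 genes passed it against vehicle. The shift of all genes depended on the scaling of the tumors: with each tumor scaled to the same median the medians were 0.03 and 0.10. It depended also on single tumors. The olaparib median was 0.09 without tumor 1517 and 0.81 without tumor 1521, and the ADU-S100 median was 0.16 without tumor 1506. The 2 comparisons share the vehicle tumors, so a high or low vehicle value moves both the same way.

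The genes with the smallest unadjusted p values in the direct comparison encode chemokines that attract monocytes. Ccl2, the main ligand of the monocyte receptor CCR2, was counted at 1982, 1479 and 810 normalized counts in the ADU-S100 tumors and at 397, 136 and 612 in the olaparib tumors. Ccl7, another CCR2 ligand, was at 1151, 477 and 320 with ADU-S100 and at 101, 178 and 122 with olaparib. Neither gene overlapped between the groups. The log2 difference was 2.05 for Ccl2 (SE 0.62, 95% confidence interval 0.70 to 3.40) and 2.10 for Ccl7 (SE 0.65, 0.66 to 3.53), both with a limma adjusted p of 0.998. The vehicle mean lay between the agents, with Ccl2 1.01 above vehicle on the log2 scale with ADU-S100 and 1.04 below it with olaparib (-1.04), and Ccl7 at 1.60 and -0.49. In tumor 1517 the Ccl2 value rests on 13 counts and the Ccl7 value on 17. Without that tumor the Ccl2 difference was 1.43. The receptor gene Ccr2 was at 883, 375 and 154 with ADU-S100 and at 109, 272 and 66.0 with olaparib, a log2 difference of 1.56 (SE 0.85) with overlapping groups, which was 0.93 without tumor 1506.

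Over all 33 chemokine ligand genes tested, 20 were on average higher with ADU-S100 and 13 with olaparib, with a median difference of 0.17 (0.01 over all genes). The direction turned without tumor 1506 (12 and 21 genes, median -0.25) and without tumor 1521 (10 and 23 genes, median -0.40). Apart from Ccl2 and Ccl7, the neutrophil attractant Cxcl5 did not overlap, at 177, 143 and 223 with ADU-S100 and 140, 136 and 60.1 with olaparib (log2 difference 0.76, SE 0.61), by a margin of 143 to 140, and the difference was 0.36 without tumor 1521. For the ligands of CXCR3, a chemokine receptor of T cells, the intervals of the difference included 0. Cxcl10 was at 1376, 253 and 156 with ADU-S100 and at 810, 210 and 473 with olaparib, a difference of -0.19 (95% confidence interval -1.81 to 1.44), and stood at 1.53 and 1.72 above vehicle. Cxcl9 had a difference of 0.11 (SE 0.84) and Cxcl11 of -0.50 (SE 0.72). The direction turned without tumor 1506 for Cxcl9 and without tumor 1513 for Cxcl11. Ccl5, a T cell and NK cell attractant, was at 524, 257 and 147 with ADU-S100 and at 222, 83.8 and 225 with olaparib (0.74, SE 0.70), a difference of 0.27 without tumor 1506 and of -0.20 without tumors 1506 and 1517. At the other end of the list stood Cxcl13, the B cell attractant of lymphoid follicles, at 68.4, 19.6 and 64.2 with ADU-S100 and 364, 52.4 and 219 with olaparib (-1.84, SE 1.02). Its groups overlapped through tumor 1517, whose value rests on 5 counts.

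Neutrophil genes were the list with the highest median in the direct comparison. Of 18 tested, 13 were on average higher with ADU-S100 and 5 with olaparib, the median difference was 0.69, and the medians against vehicle were 1.16 and 0.62. The latter were 0.75 and 0.27 under median scaling and 0.51 and -0.09 under quantile normalization, where the olaparib sign turned. Csf3r, the receptor for the neutrophil growth factor G-CSF, was at 128, 173 and 59.9 with ADU-S100 and at 46.8, 31.4 and 25.3 with olaparib. The groups did not overlap, and the difference was 1.69 on the log2 scale (SE 0.54, 95% confidence interval 0.50 to 2.88). The value of tumor 1517 rests on 3 counts. S100a8, a calcium-binding protein abundant in neutrophils, overlapped widely, at 1846, 7425 and 1779 against 3032, 409 and 3294. With all tumors, granule genes lay on both sides: Ltf (lactoferrin) had a difference of -0.57, Mpo (myeloperoxidase) of -0.49, Elane (neutrophil elastase) of -0.36 and Camp (cathelicidin) of 0.62. Elane turned direction without tumor 1517, where its value rests on 3 counts. The median of the list was positive with each single tumor left out, from 0.29 to 0.79, whereas that over all genes ranged from -0.36 to 0.40. Set against all genes in the same fit, the list stood between 0.08 and 0.73 above them.

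Of 30 macrophage genes, 20 were on average higher with ADU-S100 and 10 with olaparib, with a median difference of 0.34. Without tumor 1506 the direction turned, with counts of 13 and 17 and a median of -0.14. Cx3cr1, the fractalkine receptor of monocytes and macrophages, was at 1290, 829 and 568 against 522, 293 and 523 (0.97, SE 0.52), and the groups did not overlap. Itgam, the integrin chain CD11b, was at 487, 470 and 150 against 144, 147 and 107 (1.30, SE 0.63), with the lowest ADU-S100 tumor just above the highest olaparib tumor. The scavenger receptor gene Msr1 had a difference of 1.28 (SE 0.61) with overlap. The lipid carrier gene Apoe lay on the other side (-1.27, SE 0.76), at 42347 in tumor 1517 against 3792 to 10251 in the other 5 tumors. The Apoe difference was smaller in size without tumor 1517. Cd68, a lysosomal macrophage marker, was at 1060, 837 and 618 with ADU-S100 and 454, 671 and 674 with olaparib (0.47, SE 0.41). The macrophage markers Cd68, Csf1r, Emr1 and Mrc1 summed to 2066 to 4429 per ADU-S100 tumor and 1631 to 3657 per olaparib tumor, so these sums overlapped. In bulk RNA, fewer cells of a type and less RNA per cell cannot be told apart.

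Genes of inflammatory mediators of the IL-1 and IL-6 group were higher with ADU-S100 for 16 of 25, with a median of 0.28. Ptgs2, which encodes the prostaglandin-forming enzyme COX-2, had the largest difference of any gene higher with ADU-S100. It was at 424, 493 and 238 with ADU-S100 and at 113, 115 and 34.8 with olaparib, a log2 difference of 2.24 (SE 0.91, 95% confidence interval 0.25 to 4.23). The vehicle tumors were at 30.7, 222 and 303, a range that held all olaparib tumors and 1 of the ADU-S100 tumors. Il1rl1, the IL-33 receptor, did not overlap, at 103, 35.4 and 40.0 against 23.4, 21.0 and 12.4 (1.48, SE 0.67), and its value in tumor 1517 rests on 2 counts. Il1b itself overlapped, at 131, 334 and 95.6 against 199, 62.9 and 70.7 (0.74, SE 0.58, and 0.22 without tumor 1512). The median of this list turned to -0.39 without olaparib tumor 1521.

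**Figure D2:**
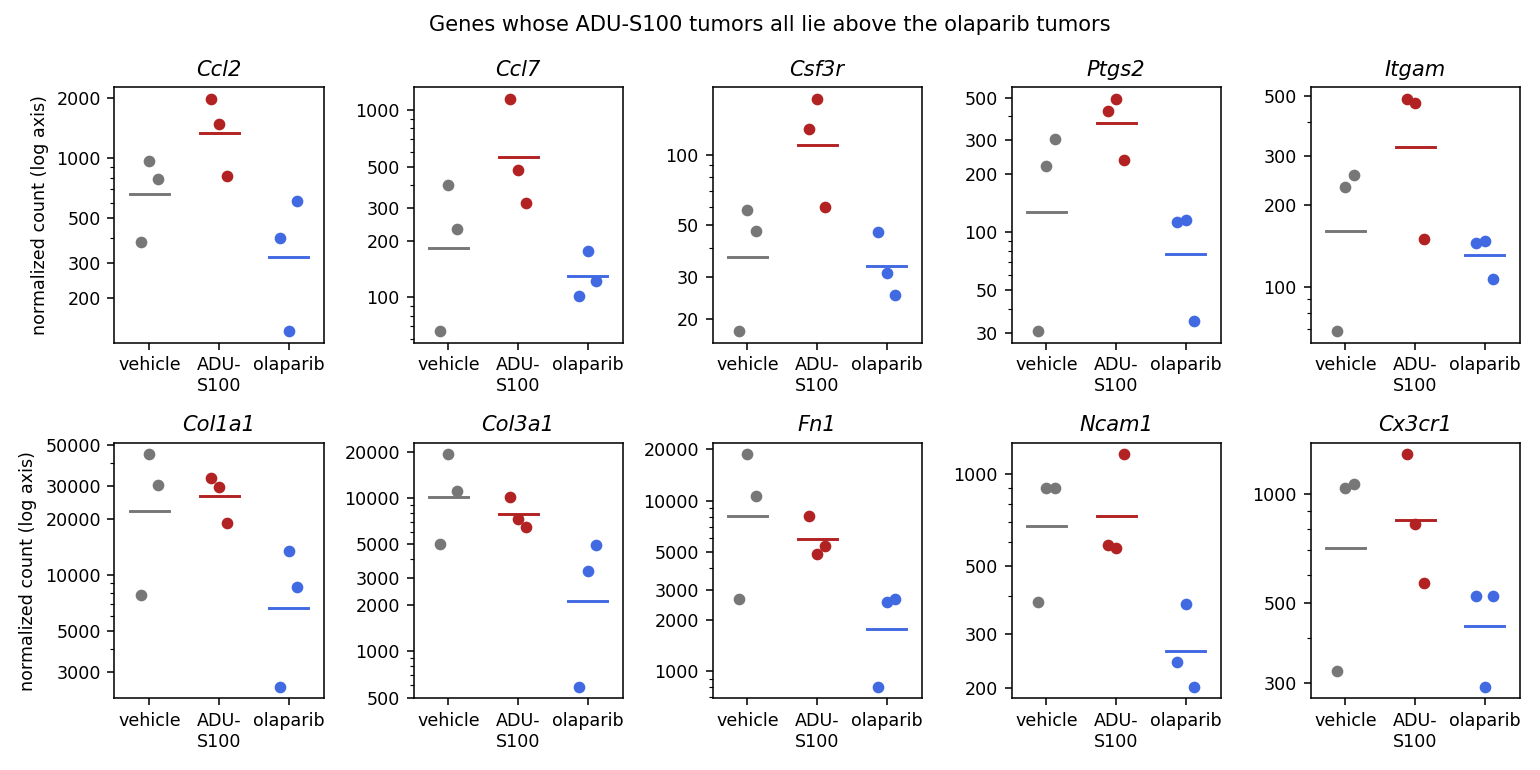
Normalized counts (log axis, scaled per gene) of 10 genes in each vehicle (grey), ADU-S100 (red) and olaparib (blue) tumor, with points in the order of the tumor numbers and a line at the mean of log2(value + 1). All 3 ADU-S100 tumors lie above all 3 olaparib tumors in each panel, and for Itgam and Cx3cr1 the closest tumors nearly touch. The vehicle tumors spread over much of both groups.

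Of 15 fibroblast and matrix genes, 3 had all ADU-S100 tumors above all olaparib tumors (2.61% over all genes), and none passed the adjusted threshold. Col1a1, a chain of collagen I, was at 33138, 29769 and 18999 with ADU-S100 and at 2498, 13393 and 8575 with olaparib. The values of Col3a1, the collagen III chain, were 10120, 7321 and 6473 against 588, 3322 and 4923, and those of Fn1, fibronectin, were 8064, 4835 and 5403 against 809, 2547 and 2661. None of the 3 genes overlapped between the agents, and olaparib tumor 1510 was the lowest for each. The log2 differences were 2.01 (SE 0.74), 1.88 (SE 0.74) and 1.75 (SE 0.73), with lower 95% confidence limits of 0.39, 0.25 and 0.16. Against the vehicle mean the differences were -1.73, -2.26 and -2.19, with olaparib and 0.28, -0.38 and -0.44 with ADU-S100. Vehicle tumor 1269 lay among the olaparib tumors for Col1a1 (7802) and Fn1 (2658) and just above them for Col3a1 (4991). Without tumor 1510 the differences between the agents were 1.31, 0.95 and 1.19.

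Over the whole list, 12 genes were on average higher with ADU-S100 and 3 with olaparib (Pdgfc, Tgfbr2 and Tgfb3), with a median of 0.54, and medians of -0.20 and -0.53 against vehicle. These were -0.60 and -0.87 under median scaling and -0.44 and -0.81 under quantile normalization, and the olaparib median was -1.26 without tumor 1517. The median was positive with each single tumor left out, from 0.23 to 0.87, and stood 0.16 to 0.67 above that of all genes in the same fit. The fibroblast markers Col1a1, Col3a1, Pdgfrb and Fap summed to 25789, 37365 and 43771 in the ADU-S100 tumors and to 3211, 13710 and 17469 in the olaparib tumors. Col1a1 makes up most of these sums, and the other fibroblast genes in them that are no structural collagens overlapped, with Pdgfrb at 333, 183 and 195 against 76.0, 440 and 115 and Fap at 179, 92.3 and 121 against 48.7, 314 and 96.6. Ncam1, a neural cell adhesion molecule, was likewise lower with olaparib than with ADU-S100, at 244, 377 and 202 against 587, 574 and 1163 (1.46, SE 0.55).

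Endothelial genes varied more within the olaparib group than between the agents. Pecam1, the endothelial adhesion molecule CD31, was at 105, 8625 and 300 in olaparib tumors 1510, 1517 and 1521 and at 1985, 389 and 507 with ADU-S100 (0.17, SE 1.35, 95% confidence interval -2.80 to 3.14). The sums of Pecam1, Cdh5, Kdr, Vwf and Tek ranged from 403 to 21137 with olaparib and from 1299 to 5890 with ADU-S100. The median of the 11 endothelial genes against the vehicle mean was 2.56 in tumor 1517 and -1.98 and -1.30 in the other olaparib tumors, and the median difference between the agents moved from 0.22 to 1.46 without tumor 1517, to -0.62 without tumor 1510, to -0.44 without tumor 1506 and to -0.26 without tumor 1521. The lymphoid tissue markers Cr2, Ccl19, Ccl21a and Cxcl13, of which the chemokine list holds 3, summed to 1666 in tumor 1517 against 487 and 232 in the other olaparib tumors, and to 906 in tumor 1506 against 78.6 and 114 in the other ADU-S100 tumors. The endothelial sum was 5890 in tumor 1506 against 1299 and 1579 in its group. Vehicle tumors differed as well, with endothelial sums from 973 to 7071. Against their mean, the median of the endothelial list was 1.52 in vehicle tumor 1529 and -1.10 and -0.40 in vehicle tumors 1269 and 1536. The sum of the NK cell markers Ncr1, Klrb1c and Klrk1 was 382 in tumor 1506 against 84.5 and 71.3, and 335 in tumor 1517 against 99.4 and 54.8. What part these have in the results, the lymphocyte and chemokine lists included, was not tested.

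On the other side of the comparison, interferon-stimulated genes were the list with the lowest median. Of 33 tested, 27 were on average higher with olaparib and 6 with ADU-S100, the median difference was -0.50, and the medians against vehicle were 0.48 for ADU-S100 and 0.9998 for olaparib. They were 0.07 and 0.65 under median scaling and 0.30 and 0.67 under quantile normalization. Rsad2, which encodes the antiviral enzyme viperin, was at 191, 157 and 116 with ADU-S100 and at 834, 262 and 201 with olaparib. It was the only gene of the list without overlap, by a margin of 191 to 201, with a difference of -1.22 on the log2 scale (SE 0.58, 95% confidence interval -2.50 to 0.07). Ifit3, an antiviral protein of the tetratricopeptide family, was at 11160, 1026 and 976 against 28772, 4988 and 3481 (-1.83, SE 1.09). Isg15, a ubiquitin-like modifier, was at 2766, 731 and 768 against 4859, 765 and 2275 (-0.81, SE 0.76). Olaparib tumor 1510 was the highest of the 6 for these 3 genes, and without it their differences were -0.60, -0.90 and -0.19. In the other direction, the Ifit3 difference was -2.99 without tumor 1506 and the Isg15 difference -1.52 without tumor 1517. For Ifit3, ADU-S100 tumors 1512 and 1513 lay below all olaparib tumors and tumor 1506 among them. The dynamin-like Mx2, at 1099, 212 and 267 against 2194, 1394 and 340 (-1.35, SE 0.83), and the helicase gene Ddx60 (-1.17, SE 0.83) were likewise below all olaparib tumors in tumors 1512 and 1513 and not in tumor 1506.

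The split within the ADU-S100 group ran through the list. The median of the 33 genes against the vehicle mean was 1.59 in tumor 1506, the highest of the 6 tumors, and -0.13 and -0.15 in tumors 1512 and 1513, while the olaparib tumors were at 1.31, 1.10 and 0.72. Without tumor 1506 the median difference was -1.12, with 31 genes higher with olaparib and 18 of them without overlap (58 of all 689 genes in the same comparison of 2 tumors against 3). Without tumor 1512 it was -0.15, and with tumors weighted by their fit it was -1.38. The list stood 0.24 to 1.01 below all genes in the same fit with each tumor left out. The vehicle tumors themselves were far apart for this list, with medians of 0.90, 0.09 and -0.95 against their own mean.

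For the upstream genes with a difference given, the interval of the difference between the agents included 0. Tmem173, which encodes STING, was at 667, 454 and 437 with ADU-S100 and at 793, 713 and 496 with olaparib (-0.36, 95% confidence interval -1.16 to 0.43). Ifnb1, interferon β, was low in every tumor, at 28.5, 31.4 and 19.98 against 46.8, 52.4 and 12.4. These values rest on 10, 16 and 14 counts with ADU-S100 and 24, 5 and 21 with olaparib, and the vehicle tumors had 20, 7 and 14 counts, so that no difference was detectable at this depth. Tbk1 had a difference of -0.19 (SE 0.47), Irf3 of -0.53 (SE 0.56) and Irf7, the IRF factor that amplifies the response, of 0.02 (SE 0.90). For the cytosolic RNA sensor gene Ddx58 (RIG-I) the difference was -0.69 (SE 0.55). Of 15 nucleic acid sensing genes, 11 were on average higher with olaparib and 4 with ADU-S100, with a median of -0.36 that turned to 0.09 without tumor 1517.

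Genes of the NF-κB pathway held the only gene at an unadjusted p under 0.05 that was higher with olaparib. No gene higher with olaparib reached this threshold without a filter, with the 2 groups alone, or without tumor 1510 or 1512. Relb, the subunit of the noncanonical pathway, was at 567, 456 and 385 with ADU-S100 and at 1148, 786 and 627 with olaparib, a log2 difference of -0.83 (SE 0.37, 95% confidence interval -1.65 to -0.02). Nfkb1, the precursor of p50, was at 1131, 984 and 890 against 1492, 2305 and 1141 (-0.66, SE 0.38). Neither overlapped, and for Nfkb1 the closest tumors stood at 1131 and 1141. Nfkbia, the inhibitor IκBα whose gene is itself an NF-κB target, was at 533, 401 and 397 against 1148, 1383 and 385 (-0.95, SE 0.48). Here tumor 1521 was the lowest of all 6. Without tumor 1517 the differences of Nfkb1 and Nfkbia were -0.39 and -0.60. Of 21 genes of the pathway, 16 were on average higher with olaparib and 5 with ADU-S100, with a median of -0.15, which was 0.01 without tumor 1517. Among the inflammatory genes given above, Ptgs2 and Ccl2 were higher with ADU-S100. A list of targets of the pathway was not examined. Of the other genes without overlap that were higher with olaparib, Ripk2, the kinase of NOD signaling, had a difference of -0.40 and Smn1, which acts in assembly of the splicing machinery, of -0.23.

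Genes of MHC class II presentation were on average higher with olaparib for 9 of 11, with a median of -0.29 and medians of -0.15 for ADU-S100 and 0.16 for olaparib against vehicle. The olaparib median was below vehicle under the other scalings, with -0.56 and -0.19 under median scaling and -0.55 and -0.30 under quantile normalization. The ADU-S100 median against vehicle was -0.68 without tumor 1506. That of olaparib was 0.10 without tumor 1517 and 0.50 without tumor 1521. H2-Aa, the α chain of I-A, was at 4683, 1770 and 1789 with ADU-S100 and 5796, 3385 and 4288 with olaparib (-0.83, SE 0.46). Its β chain gene H2-Ab1 was at 5096, 1837 and 1347 against 6355, 4642 and 2451 (-0.84, SE 0.54), and the invariant chain gene Cd74 at 8246, 3307 and 3006 against 15446, 7011 and 5252 (-0.93, SE 0.56). In all 3 genes tumors 1512 and 1513 were below every olaparib tumor, and tumor 1506 was among them. Without tumor 1506 the differences of H2-Aa, H2-Ab1 and Cd74 were -1.30, -1.40 and -1.39, while H2-Ab1 was at -0.45 without tumor 1513 and Cd74 at -0.48 without tumor 1510. Vehicle levels of H2-Aa, at 4678, 6164 and 3474, were above the same pair of ADU-S100 tumors. The median of the list was -0.79 without tumor 1506 and 0.01 without tumor 1512, and it was -1.18 with tumors weighted by their fit. Ctss, the protease that trims the invariant chain, was on the other side (0.72, SE 0.55), with a smaller difference without tumor 1506 or without tumor 1517. For MHC class I and its processing, 12 of 18 genes were higher with olaparib, with a median of -0.12 that was 0.06 without tumor 1512 and 0.12 without tumor 1513, and H2-K1 had a difference of -0.11 (SE 0.64).

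**Figure D3:**
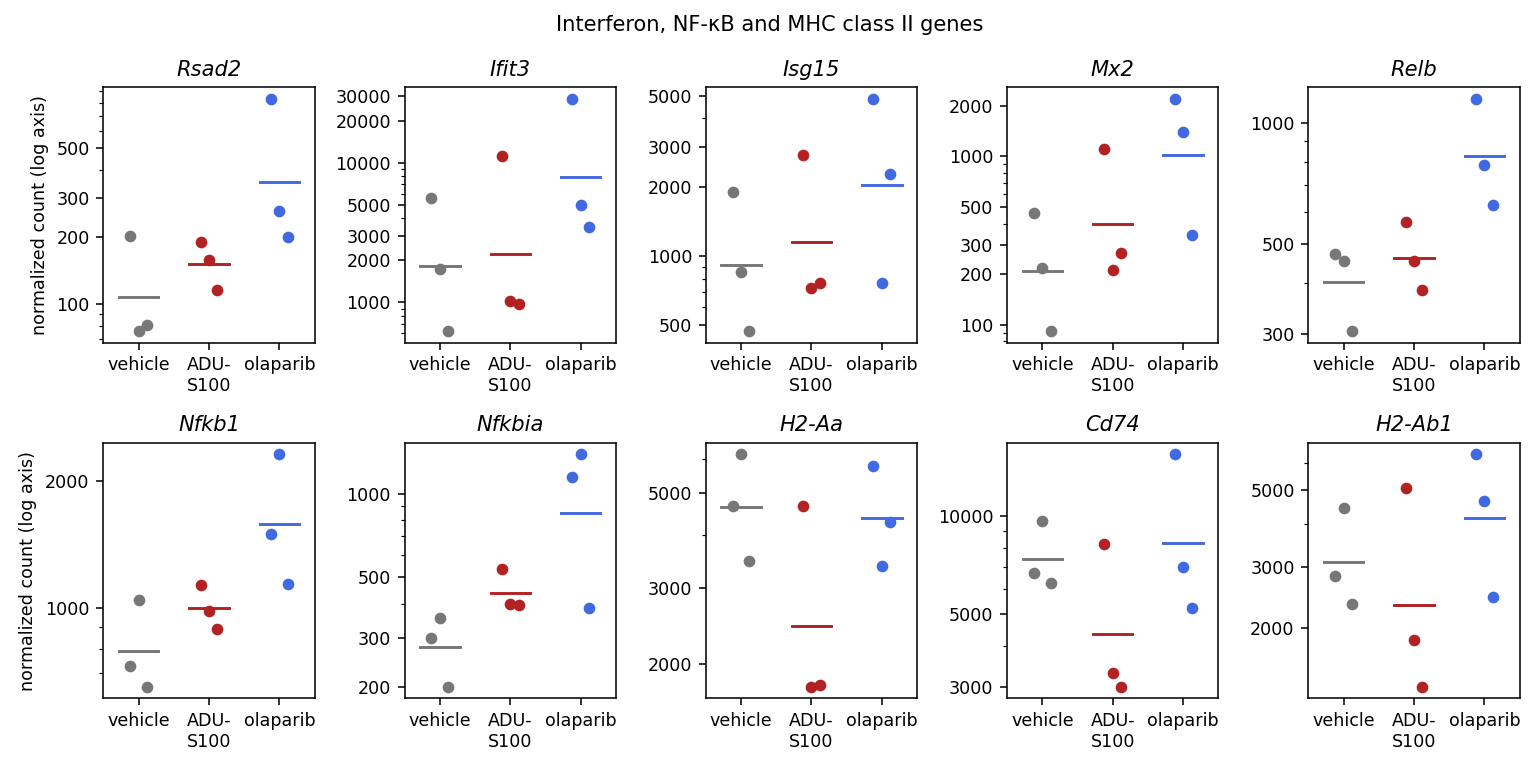
Normalized counts (log axis, scaled per gene) of 10 interferon, NF-κB and MHC class II genes in each vehicle (grey), ADU-S100 (red) and olaparib (blue) tumor, with points in the order of the tumor numbers and a line at the mean of log2(value + 1). In Ifit3, Isg15, Mx2, H2-Aa, Cd74 and H2-Ab1 the first ADU-S100 tumor (1506) stands well above the other 2, and only Rsad2, Relb and Nfkb1 do not overlap between the agents.

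Dendritic cell genes were on average higher with olaparib for 16 of 18, with a median of -0.35. The largest difference was that of Cd207, the lectin langerin, at 444, 62.9 and 21.2 with olaparib against 34.2, 21.6 and 14.3 with ADU-S100 (-1.90, SE 1.03), which was -0.71 without tumor 1510. The general marker Itgax (CD11c) had a difference of -0.38 (SE 0.37) and the costimulatory receptor gene Cd40 of -0.38 (SE 0.46), both with overlapping groups. The median of the list was 0.25 without tumor 1517. Klra17, which encodes a receptor of plasmacytoid dendritic cells, was at 25.6, 11.8 and 5.71 against 21.4, 41.9 and 24.2 (-1.14, SE 0.61), near the filter.

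Lymphocyte genes showed no one direction. Of 24 T cell genes, 14 were on average higher with ADU-S100 and 10 with olaparib (median 0.07), and of 25 cytotoxic and NK cell genes 14 and 11 (median 0.18). Cd8a was at 17.1, 21.6 and 14.3 with ADU-S100 and 13.6, 41.9 and 7.66 with olaparib, and Gzmb, the cytotoxic protease granzyme B, at 25.6, 23.6 and 14.3 against 17.5, 126 and 5.89. Behind these values stand 6, 11 and 10 against 7, 4 and 13 counts for Cd8a, and 9, 12 and 10 counts in either group for Gzmb, so that no difference was detectable at this depth. Cd4 was at 108, 39.3 and 29.96 against 138, 126 and 60.7 (-0.9997, SE 0.52), with 2 ADU-S100 tumors below all olaparib tumors, and the difference was -1.54 without tumor 1506 and -0.63 without tumor 1513. Eomes, a transcription factor of NK cells and cytotoxic T cells, did not overlap, at 57.0, 29.5 and 28.5 against 27.3, 21.0 and 8.84 (1.03, SE 0.47). The Eomes difference was 0.58 without tumor 1521. Its values rest on 20, 15 and 20 against 14, 2 and 15 counts, which do overlap, so the separation of the groups depends on the scaling. Raet1, a stress-induced ligand of the NK receptor NKG2D, was at 148, 92.3 and 54.2 against 25.3, 41.9 and 19.4 (1.69, SE 0.75) without overlap. Its value in tumor 1517, the same as that of Cd8a, rests on 4 counts. Against vehicle the medians of the cytotoxic list were 1.23 for ADU-S100 and 0.88 for olaparib, and those of the T cell list 0.84 and 0.89. Under quantile normalization they were 0.43 and 0.20, and 0.00064 and 0.16. The olaparib medians of these lists were 0.36 and 0.24 without tumor 1517, and 1.76 and 1.63 without tumor 1521. The ADU-S100 medians were 0.81 and 0.50 without tumor 1506. In the vehicle tumors counts were likewise low, at 9, 6 and 8 for Gzmb and 10, 8 and 10 for Cd8a. What part the scaling of such low counts has in these medians was not tested. Without tumor 1517 the median difference of the cytotoxic list was 0.93, and without tumor 1521 it was -0.54, and that of the T cell list was 0.57 and -0.48.

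Among checkpoint genes 12 of 21 were higher with ADU-S100, with a median of 0.03. Without tumor 1517 there were 19 (median 0.59), without tumor 1521 4 (-0.57) and without tumor 1506 6 (-0.19). Cd274, the PD-1 ligand PD-L1, was at 433, 393 and 194 against 514, 440 and 137 (0.03, 95% confidence interval -1.22 to 1.28). Ly9, a SLAM family receptor, and Birc5, the apoptosis inhibitor survivin, were at an unadjusted p under 0.05 with overlapping groups (1.48 and 1.68), and Birc5 was at 199 in tumor 1517 against 1261 to 4552 in the other 5 tumors. The Birc5 difference was 0.69 without tumor 1517 and the Ly9 difference 0.94 without tumor 1506, and the Ly9 value of tumor 1517 rests on 1 count. The epithelial genes that mark the tumor cells were present in all 6 tumors, with Epcam, Cdh1 and Muc1 summing to 11861 to 19063 with ADU-S100 and 12324 to 22177 with olaparib. Cdh1 had a difference of 0.12 (SE 0.36), whereas the mucin gene Muc1 was at 473, 114 and 170 against 581, 1981 and 275 (-1.70, SE 0.83, and -0.93 without tumor 1517). Trp53, whose probe need not lie in the deleted exons, was counted at 2182, 1175 and 900 against 1876, 3930 and 289 (0.04, SE 0.80). Cdkn1a, the p53 target p21, was at 1099, 1277 and 1266 against 1771, 1174 and 723 (0.08, SE 0.42), and Fos, an immediate-early gene, at 2119, 1279 and 2735 against 5781, 9673 and 1354 (-1.12, SE 0.68), with a difference of -0.52 without tumor 1517 and -1.94 without tumor 1521.

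Over the 27 lists, 5 had a median below that of all genes with each single tumor left out, without tumors 1506 and 1517 together, and under median and quantile scaling (nucleic acid sensing, interferon-stimulated, dendritic cell, JAK-STAT and TNF superfamily), and 3 had one above it throughout (macrophage, neutrophil, fibroblast and matrix). The other 19 lists changed sides in at least 1 of these fits. JAK-STAT had 6 genes in each direction with all tumors, and the TNF superfamily list stood at -0.0079 from the median of all genes without tumor 1517. The macrophage list was 0.08 above it without tumor 1506. These counts describe the 6 tumors and carry no test, because genes of a list vary together within a tumor.

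**Figure D4:**
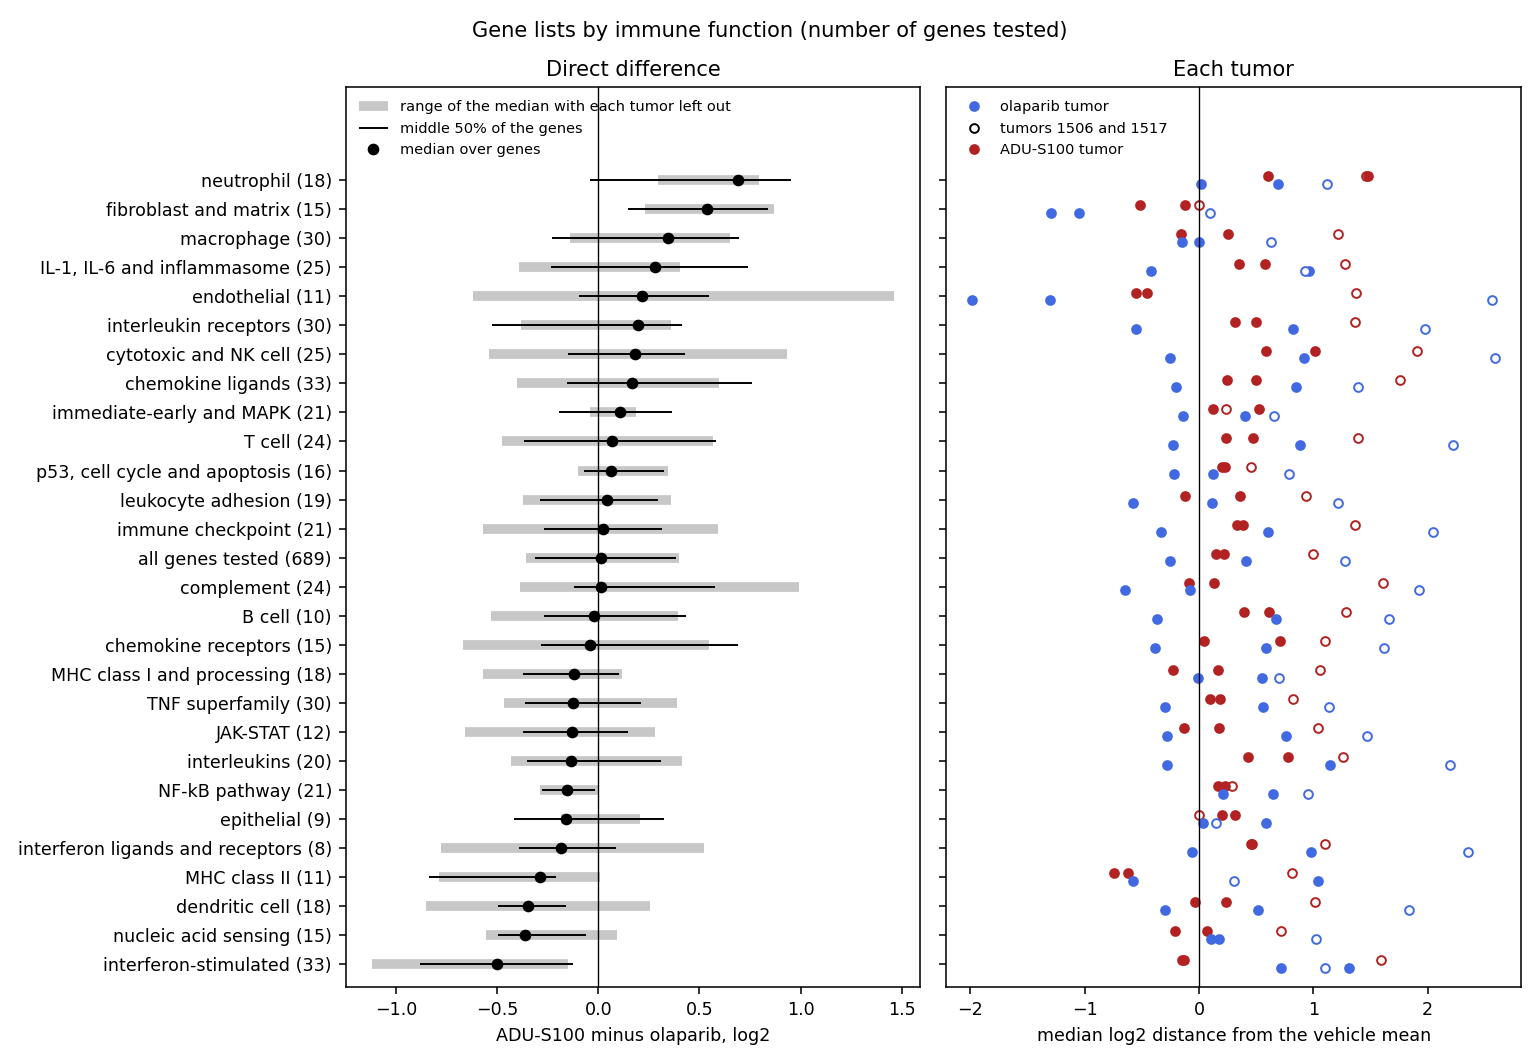
Left, the median ADU-S100 minus olaparib difference (log2, black point) of each gene list with the middle 50% of its genes (thin line) and the range of the median with each tumor left out (grey bar). Right, the median log2 distance of each list from the vehicle mean in every ADU-S100 (red) and olaparib (blue) tumor, with tumors 1506 and 1517 drawn open. The grey bars of the interferon-stimulated (-1.12 to -0.15), neutrophil (0.29 to 0.79) and matrix (0.23 to 0.87) lists stay on one side of 0, and tumors 1506 and 1517 lie to the right of their groups for most lists.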

How the data were processed

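The authors deposited a linear signal, the normalized nCounter count, which nSolver made by quality control, background correction and scaling to positive controls and housekeeping genes. The paper left raw counts below the negative controls out of its further analysis. Low values nevertheless remain among those deposited, such as Igll1 at 1 count in tumor 1517. In each tumor at least 99.87% of the deposited values above 1, the lowest value listed, are whole multiples of one step (within 0.01), taken as the worth of 1 count after scaling, from which counts were inferred. The inferred counts entered no test. These totals limit precision and cover counting error only. Housekeeping genes were not analysed here.

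Tumors were grouped by their labels. On log2(normalized count + 1), the 12 tumors were fitted with a mean for each of the 4 groups in limma 3.58.1 under R 4.3.3 (lmFit, eBayes, 8 residual degrees of freedom), with Benjamini-Hochberg adjustment over 689 genes. Confidence intervals are those of limma. The fit was tested on simulated data. The comparison, its members and the gene lists were chosen with earlier results of these data known. Lists were written from gene nomenclature (736 symbols were current, 8 older, 6 unmatched). Named genes were the 10 of smallest p in each direction, the 2 of smallest p per list and a fixed set of immune genes, and the genes without overlap and others of the lists were named after their values were seen. B2m and Brca1 of that set were not used here, and some other genes are not reported here. Tried as alternatives were a filter at 50 or none, a pseudocount of 10, median and quantile scaling, an intensity trend, the 2 groups alone, the methods' t-test and leaving out each tumor. Tumor weights, the scaling factor as a covariate and leaving out tumors 1506 and 1517 together were added after seeing the data. Figures were drawn with matplotlib 3.10.9.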

Additional observations from a re-analysis of the deposited data

How the results depend on the processing

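In the direct comparison no gene passed the adjusted threshold in any fit run. The smallest limma adjusted p over the alternatives was 0.0586 (tumor weights) and the largest 0.999, and the methods' t-test gave 7 genes unadjusted and 0 after Benjamini-Hochberg or Benjamini-Yekutieli adjustment. Depth limits low genes in tumor 1517, where 333 of the 750 genes have at most 20 counts. The edgeR alternatives were not run. No paired analysis was possible because the groups share no tumor numbers. With each tumor left out in turn, genes at an unadjusted p under 0.05 were 6 (without 1506) to 61 (without 1517) higher with ADU-S100 and 0 (without 1510 or 1512, among others) to 59 (without 1521) higher with olaparib, those without overlap 18 to 133 (without 1517) and 5 to 88 (without 1521). Fewer tumors in a group make an absence of overlap more frequent. Against vehicle they were 12 to 78 above and 0 to 1 below for ADU-S100, and 14 to 203 above and 3 to 22 below for olaparib, where 0 to 55 genes passed the adjusted threshold (55 without tumor 1521, and 52 with tumor weights). The list medians in these fits lay between -0.39 and 0.40 for the IL-1 and IL-6 list and between -0.18 and 0.20 for the epithelial list. Added alternatives moved further values. With tumor weights, 61 genes were higher with ADU-S100 and 92 with olaparib at an unadjusted p under 0.05, 127 above and 6 below vehicle for ADU-S100 and 168 and 41 for olaparib, and the medians were -1.18 for MHC class II and -1.38 for interferon-stimulated genes. With the scaling factor as a covariate the direct counts were 36 and 12, with 18 below vehicle for ADU-S100 and 12 above and 45 below for olaparib. Without tumors 1506 and 1517 there were 19 genes higher with olaparib, 147 and 73 without overlap, 3 below vehicle for ADU-S100, 26 above and 27 below for olaparib, and an epithelial median of 0.16. Quantile normalization gave 23 and 23 direct genes, 19 without overlap higher with olaparib, 13 below vehicle for ADU-S100 and 25 above and 21 below for olaparib. Median scaling gave 14 genes higher with olaparib, 28 without overlap and 7 below vehicle for ADU-S100. Genes higher with olaparib were 2 with a pseudocount of 10 and 0 without a filter or with the 2 groups alone. Some genes changed direction, and those listed here are among the genes chosen by the naming rule. Over single tumors left out, the differences ranged for Cd274 from -0.57 to 0.39, Cd40 -0.68 to 0.027, Cd8a -0.44 to 0.71, Cdh1 -0.0088 to 0.24, Cdkn1a -0.25 to 0.39, Cxcl10 -1.12 to 0.45, Epcam -0.80 to 0.10, Foxp3 -0.43 to 1.24, Gzmb -1.17 to 0.93, H2-K1 -0.54 to 0.15, Havcr2 -1.55 to 0.011, Ifit1 -1.04 to 0.30, Ifnar2 -0.23 to 0.65, Ifnb1 -0.89 to 0.10, Irf3 -1.11 to 0.19, Irf7 -0.88 to 0.72, Ncr1 -0.14 to 1.72, Pdcd1 -1.18 to 0.054, Pecam1 -1.14 to 2.03, Prf1 -0.74 to 1.39, S100a8 -0.12 to 1.38, Tbk1 -0.50 to 0.40, Tbx21 -0.97 to 0.86, Tnf -0.74 to 0.018 and Trp53 -1.04 to 0.84. The same held for Irf7 (-0.040), Cd274 (-0.033) and Trp53 (-0.023) under median scaling, Cd8a (-0.020) and Foxp3 (-0.0066) with a pseudocount of 10, H2-K1 (0.017), Cd8a (-0.25) and Cd274 (-0.082) under quantile normalization, and Tbx21 (0.086) with the covariate. It held with tumor weights for Tbk1 (0.23), Irf7 (-1.13), Gzmb (0.23), Prf1 (-0.53), Cd274 (-0.39), Trp53 (-0.47) and Cdkn1a (-0.33), and without tumors 1506 and 1517 for Tbk1 (0.31), Irf3 (0.068), Ifnb1 (0.045), Irf7 (-1.23), Ccl5 (-0.20), Gzmb (0.78) and Tbx21 (0.45). The causes were not tested.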
